A study of Homo sapiens with 76 samples.

Results

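RNA-rich and RNA-poor single cells were compared within HEK293, an established human embryonic kidney cell line. For each of 76 cells, the summed UMIs of all genes were divided by the summed UMIs of synthetic spike-in RNA, and the 19 cells of highest ratio (RNA-rich) were set against the 19 of lowest ratio (RNA-poor). The members were thus chosen by their measured gene and spike-in UMIs. The remaining 38 cells of middle rank were kept apart from both groups. A UMI is a random tag put on each cDNA molecule, so that PCR copies of 1 molecule are counted once. Per the labels' protocols, all cells were grown in DMEM with glutamine and fetal calf serum, and the labels name no treatment. They were captured on a Fluidigm C1 microfluidic chip, where each chamber received 20000 molecules of ERCC spike-in RNA. Oligo-dT primed cDNA was tagged at the 5′ end of the transcript by template switching, and 5′ end fragments were sequenced.

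Cells of 1 line differ widely in how much mRNA they hold. Larger cells generally hold more, and RNA content also grows as a cell passes from its birth to division. Since most transcripts scale with the total, the informative quantity is the share each gene takes: a gene whose share does not differ has more copies in a cell with more RNA, and a gene with a lower share has scaled less than the rest. Spike-in RNA added in equal amounts to every chamber gives a yardstick for the total that a share alone cannot give.

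The ratio that chose the cells was 14.5 ± 2.99 gene UMIs per spike-in UMI in the RNA-rich cells (mean ± SD over 19 cells) and 6.12 ± 1.08 in the RNA-poor cells. The values ran from 11.4 to 21.2 in the first group, from 7.64 to 11.3 in the middle cells and from 3.69 to 7.61 in the second group. The cuts fell in a continuum: rank 19 had 11.38 and rank 20 had 11.33, while rank 57 had 7.640 and rank 58 had 7.607. RNA-rich cells gave 20785 to 43392 gene UMIs (median 34704) and RNA-poor cells 7305 to 16470 (median 12251), without overlap. Spike-in UMIs overlapped far more, with 1674 to 3132 (median 2395) against 1390 to 2435 (median 1990), and 17 of 19 RNA-poor cells reached the lowest RNA-rich value. Scaled to the stated number of spike-in molecules, and if cellular mRNA and spike-ins were captured alike, the median RNA-rich cell held 270070 mRNA molecules and the median RNA-poor cell 121042. These are descriptions of how the cells were picked, not results.

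**Figure D1:**
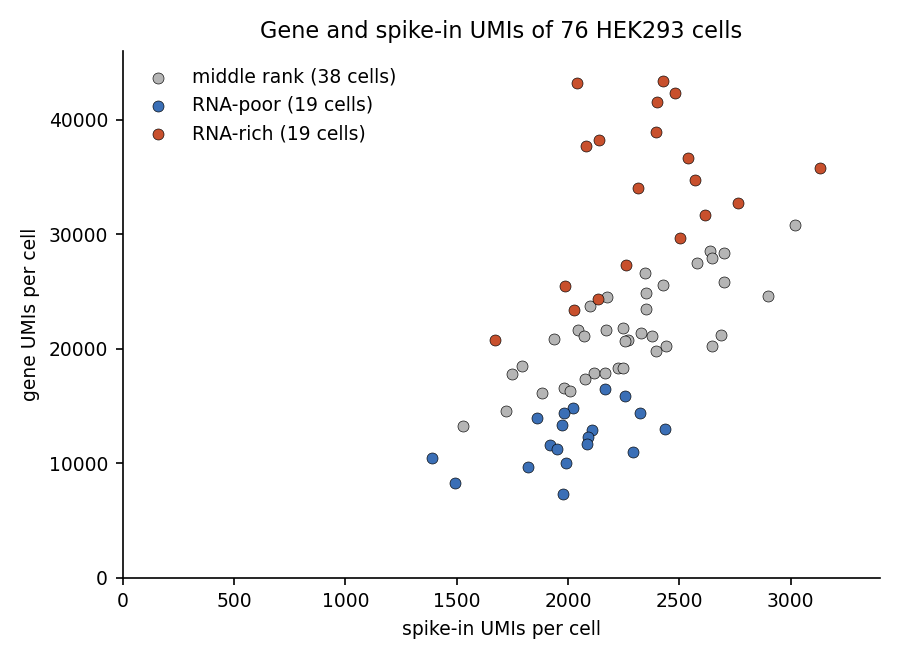
Gene UMIs (vertical axis) against spike-in UMIs (horizontal axis) of the 76 cells, 1 point per cell, coloured by group. The RNA-rich cells lie between 20785 and 43392 gene UMIs and the RNA-poor cells between 7305 and 16470, while their spike-in UMIs overlap.

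The labels name no separate cultures, so each group counts as 1 sample and the groups were not tested against each other. Intervals given below are exact 95% intervals for counting error only. Doublets were not called, and a chamber with 2 cells cannot be told apart from 1 cell with more RNA. No barcode was shared between cells, and 0 pairs of cells held identical values. The RNA-poor cell numbered 16 in the labels stood apart. Ribosomal protein mRNAs took 18.8% of its gene UMIs, against 26.99% to 35.8% in the other 18 RNA-poor cells, and its results are also given without it. Of the epithelial and kidney markers, 9 were in the table, and none reached the level for comparison set below. They summed to 196 UMIs in RNA-rich and 110 in RNA-poor cells, a ratio of share of 0.646 (0.509 to 0.823). VIM and KRT18, which encode the intermediate filament proteins vimentin and keratin 18, gave 93 and 58 UMIs in RNA-rich and 57 and 33 in RNA-poor cells. CDH2, the adhesion protein N-cadherin, had 26 and 4, and LRP2, the endocytic receptor megalin, 3 and 8. The 11 neuronal markers in the table summed to 209 and 78 UMIs, a ratio of 0.971 (0.745 to 1.28), most of them from UCHL1 (130 and 35) and NEFM (29 and 34). The part of these markers in the results was not tested. Markers of blood, fibroblast, muscle and liver were at or near 0. The 5 blood and immune markers in the table summed to 10 UMIs in RNA-rich and 0 in RNA-poor cells, the 6 fibroblast and muscle markers to 5 and 3, and the 2 liver markers to 0 and 0.

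Shares were compared in a pair of ways. In the first, all UMIs of the 19 cells were pooled, and a gene's share of the pooled gene UMIs in RNA-rich cells was divided by its share in RNA-poor cells (the pooled ratio). In the other, each cell was thinned at random to 7305 UMIs, the depth of the shallowest cell (the thinned ratio). Of 17513 genes, 521 had a mean of at least 2 thinned UMIs over the 38 cells and were compared, and they held 63.9% of gene UMIs. That mean was taken over both groups together, so a gene may have passed mainly through the group in which it was higher.

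For most genes the shares were close. The median pooled ratio over the 521 genes was 0.978, with 243 genes above 1 and 278 below, and 90% of genes lay between 0.767 and 1.44 (5th and 95th percentiles). By pooled ratio, 21 genes (4.03% of those compared) were at least 1.5-fold higher in RNA-rich cells and 5 (0.96%) at least 1.5-fold lower. Thinning gave 31 (5.95%) and 16 (3.07%). Single thinnings were noisy, since with another draw only 12 of the 31 higher and 6 of the 16 lower genes were past 1.5-fold again. Requiring both draws and the pooled ratio left 13 higher genes (2.5%) and 1 lower gene (0.192%). Spike-in RNAs were thinned in 1 draw only, to 1390 spike-in UMIs per cell. Among the 23 with a mean of at least 2 UMIs, 0 (0%) were past 1.5-fold, with ratios from 0.843 to 1.37. For 2 (8.7%) the interval did not hold 1. Their means ran from 2.32 to 355 UMIs, while only 217 of the 521 genes had a mean of at least 5. The spike-in count is therefore no measure of counting error for the rarer genes. At equal depth the RNA-rich cells showed 2151 to 2680 genes with a UMI (median 2460) and the RNA-poor cells 1951 to 2866 (median 2145), a ratio of means of 1.11. The highest RNA-poor value belonged to cell 16.

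The 13 higher genes were HNRNPR, DDX5 and SRSF2 of RNA processing, the chaperone gene HSPA8, the mitotic genes UBE2C and KPNA2, ID2, H3F3AP4, COX6A1, MRPL51, and MT-TS2, MT-TP and MT-TF, transfer RNA genes of the mitochondrion. Some of the 13 may have passed the filter on abundance mainly through the RNA-rich cells, which was not tested. The lower gene was RNA28S5, a 28S ribosomal RNA locus. Pooled ratios were also taken under 7 other choices of cells, namely 4 other rankings, 2 other group sizes and leaving out 5 shallow cells. Of the 13 higher genes, only MT-TP (1.60 to 4.21) and MT-TS2 (1.54 to 2.41) were past 1.5-fold in all of them. RNA28S5 was too, from 0.297 to 0.583. HNRNPR ran from 1.45 to 2.54, DDX5 from 1.47 to 2.08, HSPA8 from 1.44 to 2.17 and MT-TF from 1.45 to 2.04. The other genes were closer to 1 at the low end, and COX6A1 (1.28 to 1.48) and MRPL51 (1.17 to 1.499) fell short in all 7. Some genes past 1.5-fold in the first draw fell short in the pooled UMIs. The proteasome genes PSMB1 and PSMD13 had thinned ratios of 1.82 and 0.549 but pooled ratios of 1.38 (1.12 to 1.72) and 0.782 (0.584 to 1.06), HN1 had 1.897 but 1.33 (0.991 to 1.81), and ATP5C1, an ATP synthase subunit, 0.603 but 0.719 (0.575 to 0.902). Within the 38 middle cells, Spearman's rho between share and RNA ratio ran from -0.44 for COX6A1 to 0.22 for HNRNPR in the 13 higher genes. Only HNRNPR, MRPL51 and DDX5 were above 0, against 225 (43.2%) of all 521 genes. For RNA28S5 rho was 0.12. These 38 cells share 1 run, and a cell's gene total enters both quantities.

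Per spike-in UMI, nearly every gene was higher in RNA-rich cells, as the ranking fixes. Of the 521 genes, 518 (99.4%) were at least 1.5-fold higher, with a median of 2.32-fold and a sum over all genes of 2.37-fold. The lowest of those that fell short was RNA28S5, at 14.8 UMIs per 1000 spike-in UMIs in RNA-rich and 12.98 in RNA-poor cells. Its ratio was 1.14 (1.01 to 1.28). It was the 1 gene (0.192%) within 1.2-fold. At the other end, MT-TS2 differed 5.30-fold (4.28 to 6.61).

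**Figure D2:**
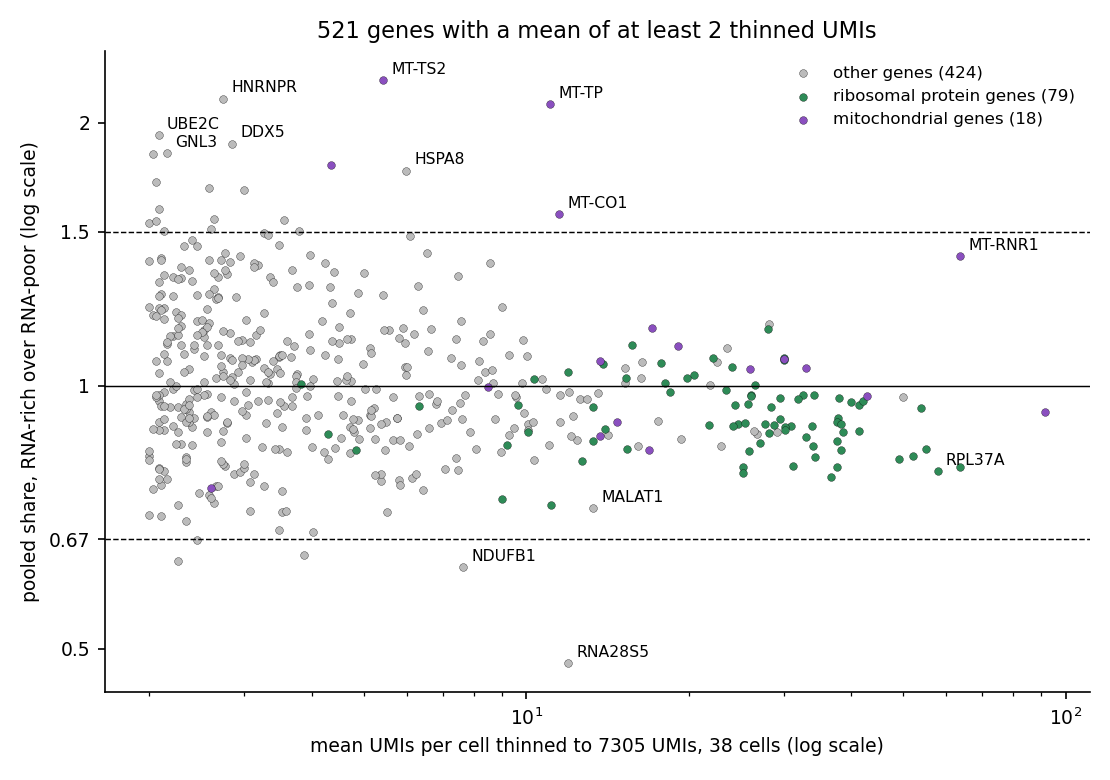
Pooled ratio of share, RNA-rich over RNA-poor cells (log axis), against mean thinned UMIs per cell (log axis), for 521 genes. Dashed lines mark 1.5-fold in either direction, and most ribosomal protein genes lie below 1 while RNA28S5 lies lowest at 0.48.

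Ribosomal protein mRNAs took a smaller share in RNA-rich cells. They encode the protein parts of the cytosolic ribosome and are among the most abundant mRNAs of growing cells. Their share of thinned UMIs was 30.7% ± 3.4 (SD) in the 19 RNA-poor cells, 29.5% in the 38 middle cells and 28.2% ± 2.3 in the 19 RNA-rich cells. The RNA-poor cells ran from 19.3% to 36.2% (median 31.4%) and the RNA-rich cells from 24.2% to 32.1% (median 27.6%), so the groups overlapped. The RNA-rich cell was the higher one in 18.8% of all rich-poor pairs of cells. The pooled ratio was 0.909 (0.901 to 0.917), and 0.890 without cell 16. Ranking the cells on all other genes, without the family itself, gave a thinned ratio of 0.911 against 0.919.

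The difference was spread over the family and small for each gene. Of 81 genes, 79 were compared and 63 of these had a pooled ratio below 1, against 278 of all 521. The interval lay below 1 for 42 genes and above 1 for 2, set against 17.9% and 14.4% of all 521 genes. No gene reached 1.5-fold, and the family's median was 0.904 against 0.978 over all genes. Large subunit genes had 0.9004 (0.891 to 0.910) and small subunit genes 0.923 (0.910 to 0.936). RPL15 had the highest ratio at 1.16 (1.07 to 1.26). Since ribosomal protein genes have many near-identical processed copies in the genome, values of single genes depend on how the authors assigned reads that fit several places.

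RPLP1, RPL37A and RPS29 illustrate the size of the shift. RPLP1 encodes a protein of the acidic stalk of the large subunit, and its share per 10000 gene UMIs ran from 58.5 to 145 (median 97.2) in RNA-poor and from 58.7 to 104 (median 79.3) in RNA-rich cells. RPL37A had 48.2 to 110 (median 87.6) and 58.8 to 91.9 (median 67.3). RPS29 had 23.2 to 88.4 (median 59.99) and 29.3 to 65.04 (median 45.4). In all of these the medians differed while the ranges overlapped. Their pooled ratios were 0.808 (0.768 to 0.849), 0.798 (0.757 to 0.841) and 0.785 (0.736 to 0.838). Per 1000 spike-in UMIs, RPL37A stood at 101 in RNA-rich and 53.4 in RNA-poor cells, a 1.89-fold difference. The median over all 521 genes was 2.32-fold. The ranking fixes a higher value per spike-in UMI for nearly every gene, so the direction is no result.

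The middle cells belong to neither group but were ranked by the same ratio. Within them, the family's share had a Spearman's rho of -0.284 with the RNA ratio over 38 cells. RPL31 and RPL37 were among the 5 genes of most negative rho, at -0.49 and -0.56. Both quantities contain the cell's gene total, so this is a description.

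The start of these mRNAs is shown because the libraries read 5′ ends and because ribosomal protein mRNAs are known for a run of C and T letters at their cap site, the TOP motif through which growth signalling regulates their translation. The 30 bases centred on the first RefSeq transcription start (GRCh38.p14) follow on the sense strand, with the longest unbroken run of C and T in capitals.
RPLP1 (chr15:69452803-69452832, plus strand): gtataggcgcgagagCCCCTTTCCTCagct
RPS29 (chr14:49598696-49598725, minus strand): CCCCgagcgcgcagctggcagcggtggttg
RPL37A (chr2:216498829-216498858, plus strand): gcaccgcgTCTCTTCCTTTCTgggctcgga
RPL31 (chr2:101002274-101002303, plus strand): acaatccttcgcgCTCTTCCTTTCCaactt
RPS27 (chr1:153990747-153990776, plus strand): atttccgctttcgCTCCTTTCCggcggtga
HNRNPR (chr1:23344270-23344299, minus strand): gggggtggcgcgcgcgccaTTTCTagtcgt
DDX5 (chr17:64506624-64506653, minus strand): ggccccgCCTTCCCCCTCTTTTggttacag
HSPA8 (chr11:123062122-123062151, minus strand): cgggcggaaaccggTCTCattgaactcgcc
The 5 ribosomal protein windows hold runs of 4 (RPS29) to 13 letters. Those of HNRNPR, DDX5 and HSPA8, described below as higher in RNA-rich cells, hold runs of 5, 15 and 4. The windows shown were picked by hand and do not stand for either set of genes. A run of at least 7 was present in 53 of 64 ribosomal protein genes that matched (82.8%), against 20.2% of all 35116 starts in the table. Of the other compared genes 336 matched, 98 with a run (29.2%), but under 80% of them matched, so that this comparison is void. The other 15 of the 79 genes had no match by name. Among the matched genes, the 53 with a run had a median pooled ratio of 0.946 and the 11 without a run 0.890. A run in this window is a match of letters and says nothing of the factor that reads it.

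Nuclear-encoded subunits of oxidative phosphorylation, the respiratory chain and ATP synthase, were also lower. Their pooled ratio was 0.923 (0.901 to 0.944), with 33 of 48 compared genes below 1, against 278 of all 521. Thinned shares averaged 4.26% ± 0.54 in RNA-poor and 4.04% ± 0.42 in RNA-rich cells, with overlap. NDUFB1, a small accessory subunit of complex I, ran from 5.33 to 24.7 per 10000 (median 10.95) in RNA-poor and from 4.38 to 13.5 (median 8.47) in RNA-rich cells, a pooled ratio of 0.620 (0.538 to 0.716). COX6A1, a subunit of cytochrome oxidase, went the other way at 1.55 (1.19 to 2.05). The list's rho in the middle cells was -0.330.

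Annotated transcript length moved with the ratio across genes. Length was the median over a gene's GENCODE 29 transcripts, of the protein-coding ones where there were any. It need not be that of the transcript these cells express. DDX5 was given 629 bases and MALAT1 480. For 483 nuclear genes with such a length, Spearman's rho between length and pooled ratio was 0.290. It was 0.244 across the 404 that encode no ribosomal protein. The genes were cut into 4 equal groups by length. The shortest group had a median ratio of 0.938 and the longest 1.11. Without ribosomal protein genes these were 0.954 and 1.12. There, 68 of the 101 longest genes had a ratio above 1, against 38 of the 101 shortest. Genes of one cell pool share depth and composition and are not independent. Ribosomal protein and NDUF mRNAs are short, and the part of length in the ratios of these and the other lists was not tested.

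Splicing regulators took a larger share in RNA-rich cells. The hnRNP and SR proteins bind pre-mRNA and steer splicing and export. Their thinned share was 0.787% ± 0.15 in RNA-poor cells, 0.836% in middle cells and 0.970% ± 0.196 in RNA-rich cells. The ranges were 0.479% to 1.05% and 0.616% to 1.40%, with the RNA-rich cell higher in 76.5% of pairs. The pooled ratio was 1.201 (1.14 to 1.27), and 7 of 8 compared genes were above 1, against 243 of all 521. By thinned ratio in the first draw, the list had 1.23 and 6 of the 8 genes were above 1. In the middle cells the list's rho was 0.339.

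HNRNPR, an hnRNP that binds mRNA in the nucleus, had the largest ratio of the list. It ran from 0.676 to 5.05 UMIs per 10000 (median 1.82) in RNA-poor and from 1.10 to 8.63 (median 4.32) in RNA-rich cells, and from the middle cells came a median of 3.38. The RNA-rich cell was higher in 89.5% of pairs. The pooled ratio was 2.13 (1.58 to 2.93). SRSF2, an SR protein of splice site selection, had 1.55 (1.22 to 1.98), and HNRNPA2B1 0.924 (0.75 to 1.14). DDX5, an RNA helicase of RNA processing and transcription, ran from 0.854 to 5.16 (median 2.88) in RNA-poor and from 0.392 to 8.48 (median 5.49) in RNA-rich cells, a pooled ratio of 1.89 (1.45 to 2.50). In both HNRNPR and DDX5 most RNA-rich cells lay above the RNA-poor median, and the ranges overlapped. The core spliceosome list stood at 1.01 (0.965 to 1.06), with 7 of 14 genes above 1, against 243 of all 521.

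Heat shock chaperones of the cytosol and the mitochondrion, which fold new and damaged proteins, took a larger share in RNA-rich cells. They averaged 0.643% ± 0.18 of thinned UMIs in RNA-poor and 0.795% ± 0.14 in RNA-rich cells. The ranges were 0.370% to 0.986% and 0.548% to 1.10%. All 7 compared genes had a pooled ratio above 1, against 243 of all 521. They ran from 1.02 for HSP90AA1 to 1.76 (1.48 to 2.12) for HSPA8, and the list had 1.27 (1.198 to 1.34). By thinned ratio in the first draw, 5 of the 7 genes were above 1 and the list had 1.24. Its rho in the middle cells was 0.117. HSPA8, the constitutive Hsc70 chaperone, ran from 1.37 to 10.9 UMIs per 10000 (median 5.24) in RNA-poor and from 5.05 to 19.4 (median 10.6) in RNA-rich cells. Its RNA-rich cells began about where the RNA-poor median lay.

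The chaperonin TRiC, the ring complex that folds actin and tubulin, had a pooled ratio of 1.31 (1.21 to 1.43). By pooled ratio 7 of 7 compared subunits were above 1, against 243 of all 521. By thinned ratio in the first draw, 5 of the 7 were above 1 and TRiC had 1.21 (1.06 to 1.38). In the middle cells its rho was 0.072. CCT8 shows how far single draws can be trusted. Its thinned ratio was 2.85 in the first draw and 1.2 in the other, and its pooled ratio was 1.84 (1.34 to 2.59). Endoplasmic reticulum chaperones and secretory entry genes stood at 0.987 (0.937 to 1.04), and the proteasome at 1.01 (0.957 to 1.07).

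Nucleolar proteins of ribosome assembly had a pooled ratio of 1.21 (1.15 to 1.27), while the ribosomal proteins they assemble were at 0.909. Of the 10 compared nucleolar genes 8 were above 1, against 243 of all 521. By thinned ratio in the first draw, 6 of these 10 were above 1 and the nucleolar list had 1.13. Their thinned shares averaged 0.973% ± 0.18 and 1.10% ± 0.23, with wide overlap, and rho in the middle cells was 0.022. NPM1, the most abundant nucleolar chaperone of the list, ran from 14.6 to 60.8 per 10000 (median 35.1) in RNA-poor and from 27.2 to 55.2 (median 41.1) in RNA-rich cells, a ratio of 1.18 (1.09 to 1.27). GNL3, the nucleolar GTPase nucleostemin, had 1.85 (1.36 to 2.55), and NHP2, a snoRNP protein, 0.865 (0.73 to 1.03). NIFK, a nucleolar partner of Ki-67 outside the list, had 1.68 (1.246 to 2.31), but 2.06 and 1.29 in the separate draws. Translation factors stood at 1.02 (0.984 to 1.05), with 8 of 20 genes above 1, against 243 of all 521. RNA polymerase II subunits stood at 1.01 (0.931 to 1.09).

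**Figure D3:**
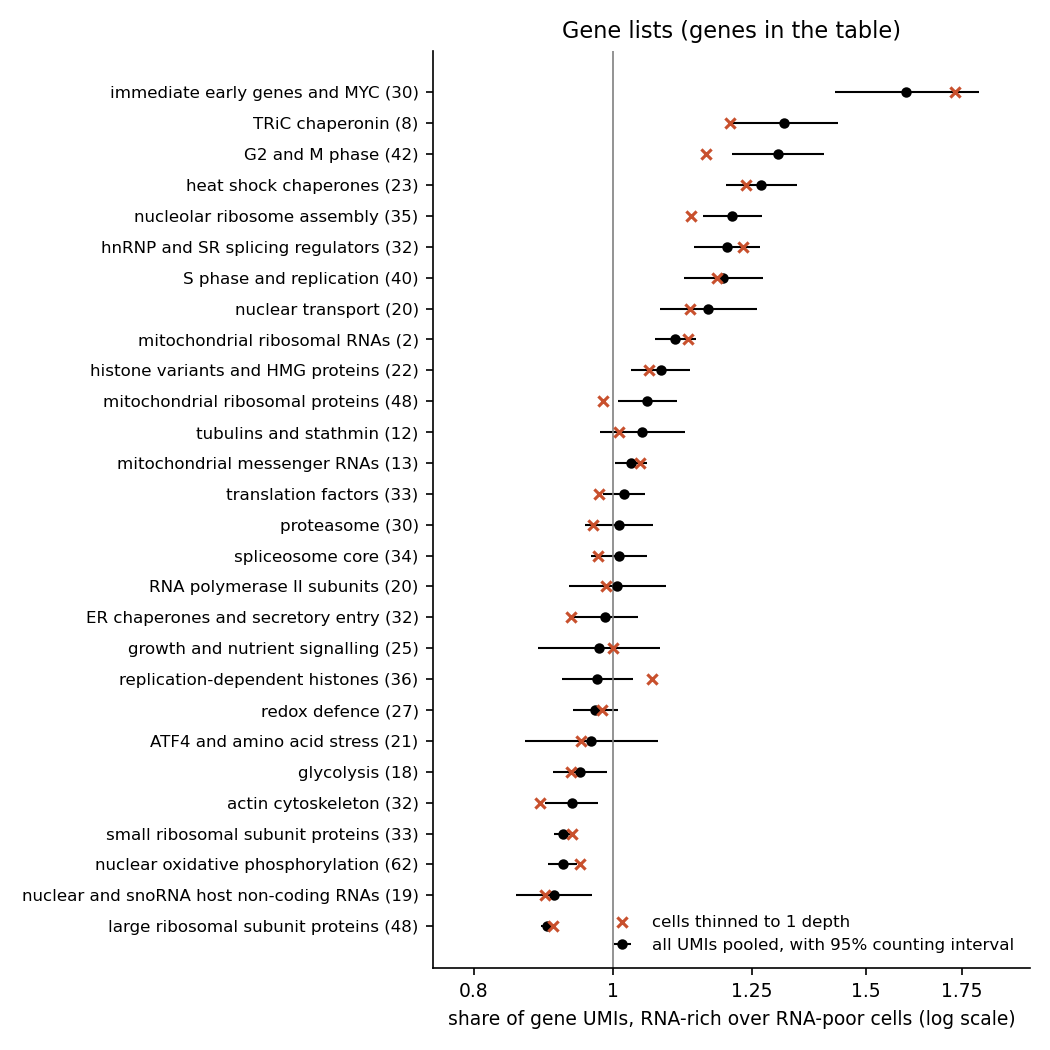
Ratio of share, RNA-rich over RNA-poor cells (log axis), for gene lists with at least 1 compared gene, without the mitochondrial transfer RNAs, a list made after values were seen; the number of list genes in the table is in brackets. Black points with bars are pooled ratios with exact 95% counting intervals, and crosses are ratios of cells thinned to 1 depth. The lists run from large subunit ribosomal proteins at 0.9004 to immediate early genes at 1.60.

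Cell cycle lists overlapped widely between the groups. The G2 and M phase list, genes that peak before and during division, had a pooled ratio of 1.30 (1.21 to 1.40) but 1.16 in the thinned cells, and a rho of 0.128 in the middle cells. By pooled ratio all 5 compared genes were above 1, against 243 of all 521, and by thinned ratio in the first draw 4 of the 5. Thinned shares ran from 0.164% to 0.794% in RNA-poor and from 0.246% to 0.931% in RNA-rich cells. UBE2C, the ubiquitin-conjugating enzyme of the anaphase-promoting complex, ran from 0 to 11.5 UMIs per 10000 (median 1.39) in RNA-poor and from 0.732 to 9.91 (median 2.88) in RNA-rich cells, a ratio of 1.94 (1.41 to 2.72). That ratio was 1.32 when cells were ranked with spike-ins of odd number, 1.35 for 25 against 25 cells and 3.58 for 10 against 10. KPNA2, a nuclear import adaptor, had 1.51 (1.15 to 2.02). CDK1, the mitotic kinase, had 1.34 (1.02 to 1.78). Several RNA-poor cells therefore carried these transcripts at RNA-rich levels, and the highest UBE2C share of the 38 cells belonged to an RNA-poor cell.

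The S phase and replication list had 1.19 (1.12 to 1.27), with 4 of 7 compared genes above 1, against 243 of all 521, and a rho of -0.074 in the middle cells. DUT, which removes dUTP ahead of replication, had 1.38 (1.07 to 1.81), and MCM7, a subunit of the replicative helicase, 1.14 (0.90 to 1.46). Replication-dependent histone mRNAs, which mark S phase, had 0.976 (0.921 to 1.03). Of the 36 list genes in the table only 1, HIST1H4C, reached the level for comparison, at 0.970. How fully oligo-dT priming captures these mRNAs was not tested. Their cells spread over more than an order of magnitude in both groups. Thinned shares ran from 0.0684% to 2.05% (median 0.301%) in RNA-poor and from 0.0684% to 1.66% (median 0.698%) in RNA-rich cells. Cells with high and low shares of histone UMIs were thus present in both groups.

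Immediate early genes, transcription regulators induced quickly by growth signals, were listed with MYC and with ID and HES genes. Of the lists in the plot of list ratios this one had the highest pooled ratio. It was 1.60 (1.43 to 1.80), from 1612 UMIs in RNA-rich and 365 in RNA-poor cells. The thinned share was 0.151% ± 0.15 in RNA-poor and 0.262% ± 0.12 in RNA-rich cells. RNA-poor cells ran from 0.0137% to 0.643% (median 0.0958%) and RNA-rich cells from 0.0958% to 0.507% (median 0.233%). The highest cell was RNA-poor cell 48, and without it the pooled ratio was 1.87. The thinned ratio was 1.73, but 1.375 with spike-ins of odd number, 1.337 without the 5 shallow cells and 2.46 for 10 against 10. Only ID2, an inhibitor of basic helix-loop-helix factors, reached the level for comparison. It ran from 0 to 12.5 per 10000 (median 1.54) in RNA-poor and from 0.926 to 14.8 (median 4.04) in RNA-rich cells, a ratio of 1.68 (1.28 to 2.22). The pooled ratio of ID2 turned below 1 with spike-ins of even number (0.855), for 25 against 25 cells (0.894) and without shallow cells (0.929), and was 2.78 for 10 against 10, so it has no stable side. In the middle cells the list's rho was -0.073, so the order of the groups was not seen there.

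**Figure D4:**
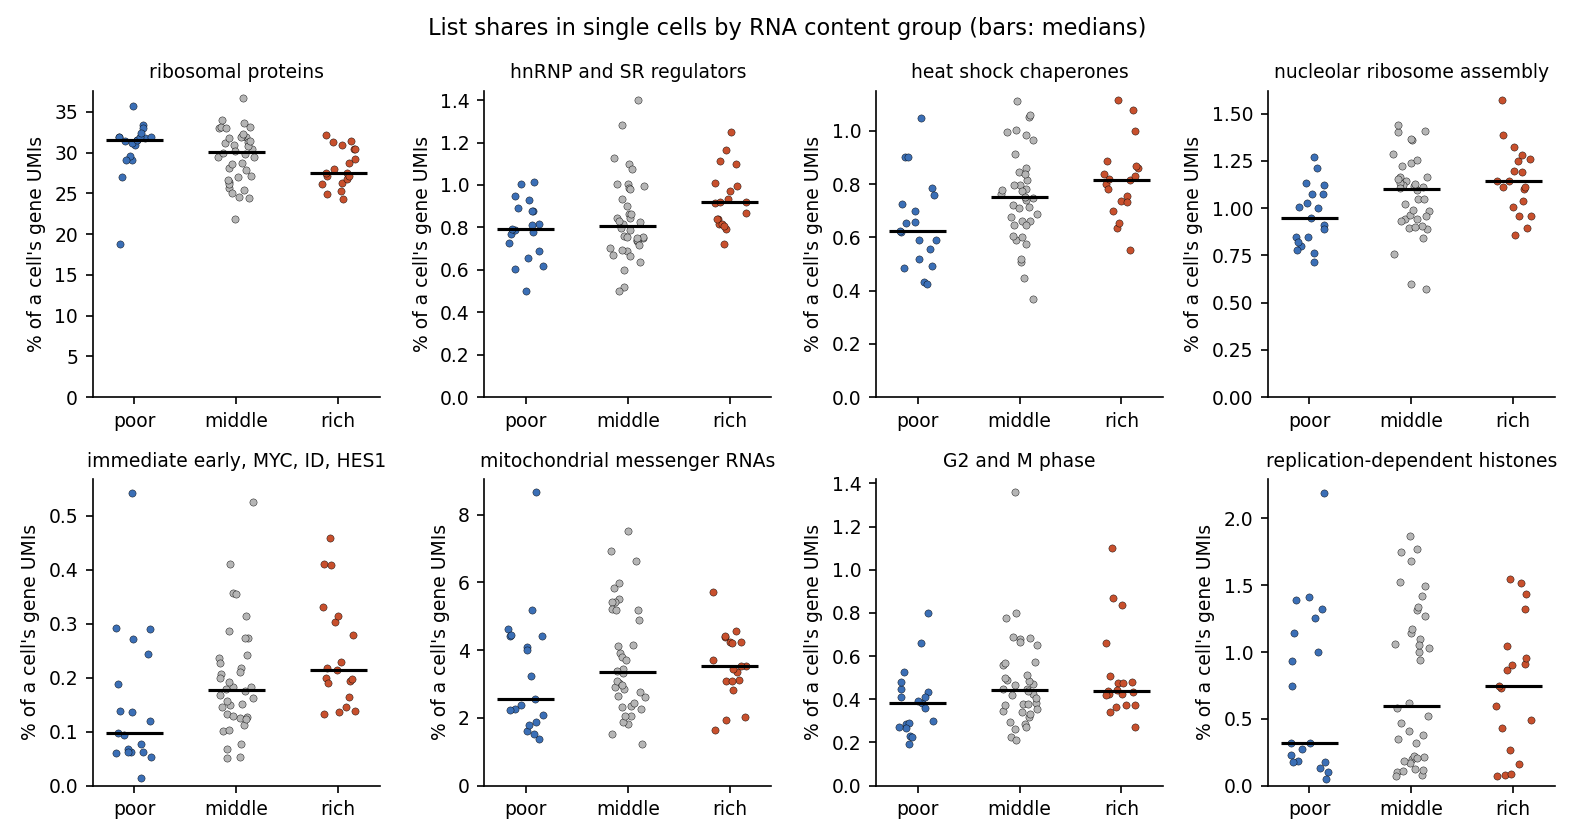
Share of a cell's gene UMIs (percent, not thinned) in 8 gene lists, 1 point per cell, for 19 RNA-poor, 38 middle and 19 RNA-rich cells, with bars at the medians. Ribosomal proteins have medians of 31.5% in RNA-poor and 27.5% in RNA-rich cells, heat shock chaperones stand at 0.623% and 0.815%, and every list overlaps between the groups.

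Mitochondrial RNA gave different values for its classes. The 13 mRNAs of the mitochondrial genome, which encode respiratory chain subunits, had a pooled ratio of 1.03 (1.00 to 1.06). Of these, 7 were above 1 and 6 below, against 243 and 278 of all 521 genes. RNA-poor cells ran from 1.45% to 8.88% (median 2.55%) and RNA-rich cells from 1.68% to 5.72% (median 3.52%). Cell 62, an RNA-poor cell, was the highest, and without it the pooled ratio was 1.15. MT-CO1, subunit I of cytochrome oxidase, ran from 0.749 to 31.3 UMIs per 10000 (median 10.95) in RNA-poor and from 10.1 to 30.6 (median 19.7) in RNA-rich cells, a ratio of 1.57 (1.38 to 1.79). MT-ATP6, an ATP synthase subunit encoded on the same strand, had 0.843 (0.765 to 0.931).

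The ribosomal RNAs of the mitochondrion differed from each other. MT-RNR1, the 12S RNA, ran from 22.3 to 182 per 10000 (median 56.8) in RNA-poor and from 33.6 to 209 (median 101) in RNA-rich cells, a ratio of 1.41 (1.33 to 1.48). MT-RNR2, the 16S RNA, had 0.933 (0.895 to 0.974). Cell 16 held 375 per 10000 of MT-RNR2, against 41.02 to 221 in the other RNA-poor cells, and without it the ratio was 1.04. For MT-RNR1 the ratio without it was 1.43.

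Mitochondrial transfer RNA rows were among the highest ratios. This list was made after values were seen, and 3 of its 22 rows reached the level for comparison. All 3 were past 1.5-fold by pooled ratio, against 4.03% of all 521 genes, and the list of 22 had a pooled ratio of 1.93 (1.77 to 2.12), from 3062 UMIs in RNA-rich and 574 in RNA-poor cells. Transfer RNAs punctuate the mitochondrial transcript and are cut out of it. Their genes lie beside or opposite other genes, and whether the authors counted by strand is not given in the sources used here, so UMIs of a neighbour cannot be told apart. The genes follow in full (GRCh38, from their own 5′ to 3′ end, last 3 bases in capitals).
MT-TP, transfer RNA for proline (chrM:15956-16023, minus strand): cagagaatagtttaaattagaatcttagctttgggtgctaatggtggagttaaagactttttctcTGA
MT-TS2, transfer RNA for serine (chrM:12207-12265, plus strand): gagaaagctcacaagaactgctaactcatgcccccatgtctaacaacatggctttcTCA
MT-TF, transfer RNA for phenylalanine (chrM:577-647, plus strand): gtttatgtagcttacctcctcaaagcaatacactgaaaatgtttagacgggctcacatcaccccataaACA
MT-TP ran from 0.676 to 48.7 UMIs per 10000 (median 4.45) in RNA-poor, with a median of 13.9 in middle cells, and from 8.75 to 58.4 (median 20.995) in RNA-rich cells. Its pooled ratio was 2.10 (1.84 to 2.41), and thinned ratios with 1 cell left out ran from 1.89 to 2.82. MT-TS2 had 0 to 11.9 (median 4.14) and 0.273 to 30.9 (median 7.64), a ratio of 2.24 (1.81 to 2.80). MT-TF, which adjoins MT-RNR1, had 0 to 8.51 (median 3.64) and 1.64 to 20.2 (median 5.32), a ratio of 1.79 (1.43 to 2.26). A few RNA-poor cells were as high in MT-TP as the RNA-rich cells, and rho with the RNA ratio in the middle cells was -0.11 for MT-TP.

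RNA28S5 was the lowest gene. It ran from 6.47 to 67.1 UMIs per 10000 (median 16.5) in RNA-poor, with a median of 14.1 in middle cells, and from 4.71 to 23.6 (median 9.51) in RNA-rich cells. The pooled ratio was 0.481 (0.427 to 0.542). Cell 16 was the highest, and without it the ratio was 0.542. The 28S gene is repeated in many near-identical copies, and ribosomal RNA has no long poly(A) tail, so these UMIs are no measure of ribosome number. MALAT1, a nuclear long non-coding RNA, ran from 0 to 64.9 (median 22.1) in RNA-poor and from 0.962 to 35.1 (median 13.7) in RNA-rich cells. Its ratio was 0.724 (0.649 to 0.808), while the middle cells had a median of 9.15, below both groups.

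**Figure D5:**
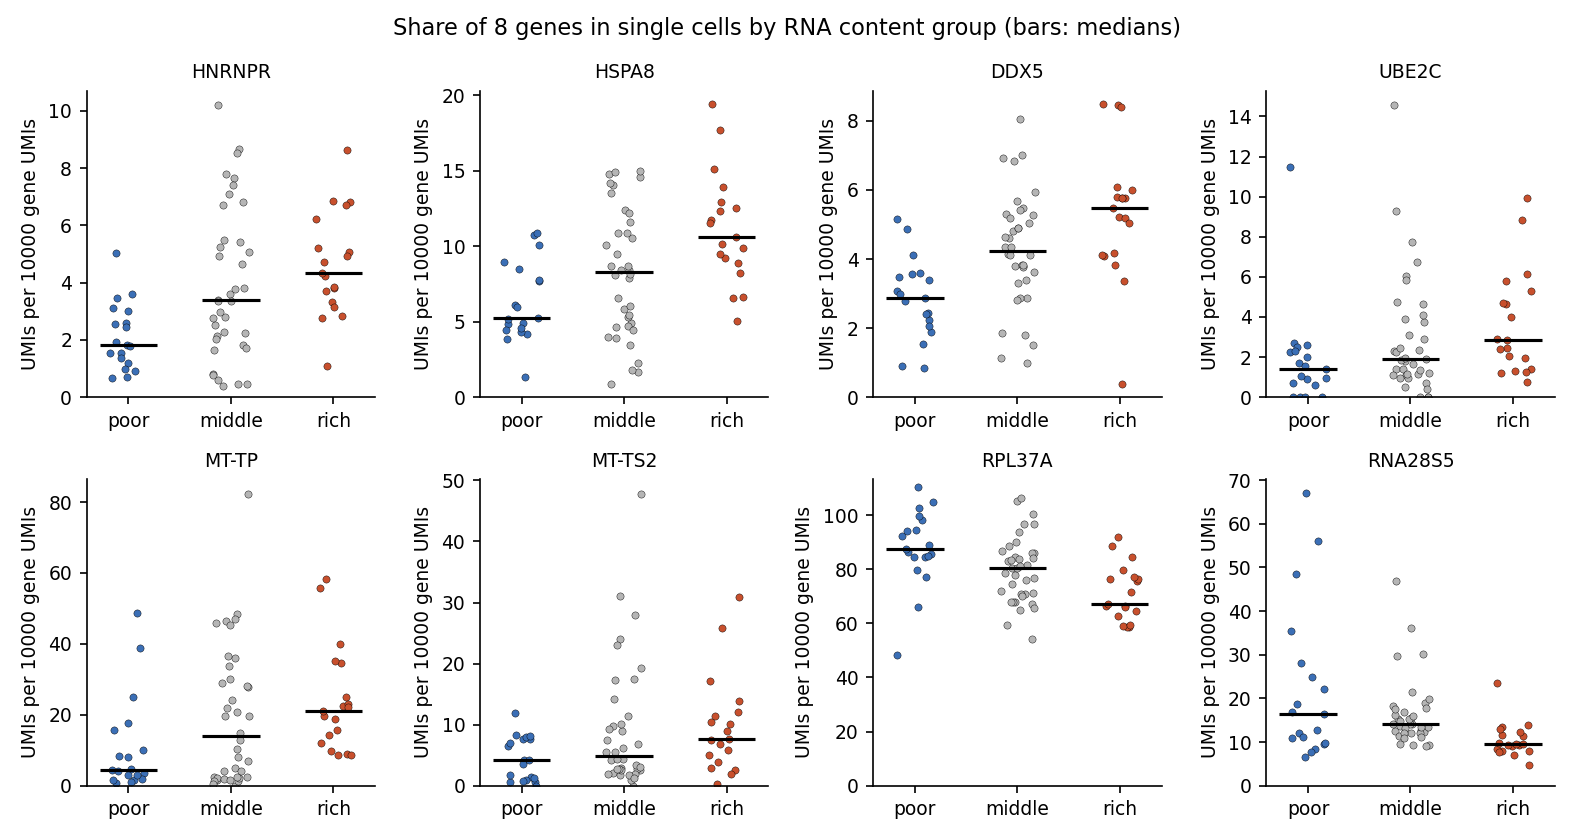
UMIs per 10000 gene UMIs of 8 genes, 1 point per cell, in 19 RNA-poor, 38 middle and 19 RNA-rich cells, with bars at the medians. HNRNPR and HSPA8 have higher medians in RNA-rich cells (4.32 against 1.82 and 10.6 against 5.24), RPL37A and RNA28S5 lower ones, and all 8 genes overlap.

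Actin cytoskeleton genes had 0.936 (0.897 to 0.977), with ACTG1 at 0.886 and CFL1 at 1.21. Glycolysis had 0.949 (0.909 to 0.991), with GAPDH at 0.886 (0.82 to 0.96) and TPI1 at 1.15 (1.00 to 1.32). Actins and GAPDH have near-identical copies elsewhere in the genome. Tubulins and stathmin had 1.05 (0.979 to 1.12), histone variants and HMG proteins 1.08 (1.03 to 1.13), redox defence 0.972 (0.938 to 1.01), nuclear transport 1.17 (1.08 to 1.26), mitochondrial ribosomal proteins 1.06 (1.01 to 1.11), and nuclear and snoRNA host non-coding RNAs 0.910 (0.856 to 0.968). ATF4 and amino acid stress genes had 0.966 (0.869 to 1.08), cholesterol synthesis 1.04 (0.922 to 1.18), and growth and nutrient signalling 0.978 (0.887 to 1.08). The p53 list had 229 and 56 UMIs and a ratio of 1.48 (1.10 to 2.02), with no gene at the level for comparison, and thinned ratios from 1.125 to 2.21 over the alternatives.

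Within the middle cells, the genes past 1.5-fold in the first thinning had a median rho between share and RNA ratio of -0.039 (higher genes) and 0.020 (lower genes), against -0.036 for all genes. The genes that followed it most closely there were PRPF38B (rho 0.53), RWDD1 (0.46), PA2G4 (0.44), RSL1D1 (0.42) and HNRNPA2B1 (0.42). Of these, RWDD1 had a pooled ratio of 0.665 and HNRNPA2B1 of 0.924 between the groups, opposite to their order in the middle cells.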

How the data were processed

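The deposited table holds whole-number UMI counts per gene and cell, not normalized, for 76 HEK293 cells. Tools named are STAR 2.4.0a and cutadapt 1.2.1, with build hg19 (GRCh37), per the submitters' processing notes. How UMIs were counted, the annotation, the handling of multi-mapping reads and any cell filter: not given in the sources used here. An N4H4 tag stands in the labels' protocol, N6H4 in the column names. A row called GENE (0.197% of the sum) was dropped, leaving 17513 gene and 80 spike-in rows. Gene UMIs per cell ran from 7305 to 43392.

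Cells were ranked by gene over spike-in UMIs. Genes with a mean of at least 2 UMIs after thinning to 7305 were compared by ratio of share, with exact conditional 95% intervals for counting error. UMIs per 10000 and shares in the plot of list shares were not thinned. Calculations used Python 3.11.15, numpy 2.4.6, pandas 2.3.3 and scipy 1.17.1, and were tested on simulated data. Named genes were the 12 highest and 12 lowest thinned ratios that stayed past 1.5-fold with each cell left out (only 3 low genes met this: RNA28S5, PSMD13, ATP5C1), the most abundant and the past-fold members of each list, genes within 1.2-fold per spike-in UMI, and the 5 highest and lowest rho in the middle cells. Genes named for their pooled ratio, such as GNL3, MT-CO1, NDUFB1 and RPL15, were chosen after their values were seen. Groups and lists were chosen with earlier results of these data known. Start windows came from RefSeq (GRCh38.p14) and transfer RNA genes and lengths from GENCODE 29 (GRCh38), matched by symbol. Alternatives were other rankings, group sizes, filters, draws and single cells left out.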

Additional observations from a re-analysis of the deposited data

How the results depend on the processing

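Of the ratios for other lists and single genes under all alternatives, 643 lay within the counting interval of the main thinned ratio and 46 outside it. None changed side of 1 where that interval excluded it, although the pooled ratio of ID2, 1.68, fell to 0.855, 0.894 and 0.929 under 3 choices of cells. Many of the single genes were picked for staying past 1.5-fold with each cell left out, and those same values are in the tally. Most alternatives also kept most of the cells. The tally is therefore no test of how stable these ratios are. The ribosomal protein ratio, 0.919 in thinned cells, was 0.892 when cells were ranked leaving out mitochondrial genes, ribosomal protein genes and the 10 of highest abundance, 0.938 with spike-ins of odd number, 0.889 when ranked by gene UMIs alone, and 0.901 to 0.929 with 1 cell left out. The histone ratio, 1.07 in thinned cells, was 0.922, 0.867 and 0.655 under those 3 rankings, 0.609 for 10 against 10 cells, 0.905 for 25 against 25, 0.942 without the 5 shallow cells, and 0.992 to 1.19 with 1 cell left out, so it has no stable side. The mitochondrial mRNA ratio, 1.04, was 1.003 with even spike-ins, 1.12 for 10 against 10, 1.000 for 25 against 25, and 1.01 to 1.15 with 1 cell left out. The G2 and M ratio, 1.16, was 1.32 unthinned, 1.32 with a correction for tags shared by chance, and 1.30 pooled. The median fold per spike-in UMI, 2.32, was 3.12 for 10 against 10 and 2.02 for 25 against 25. The number of genes compared changed with the setting. The 31 higher and 16 lower of 521 genes became 19 and 7 of 525 with odd spike-ins, 51 and 49 of 549 for 10 against 10, and 20 and 7 of 526 for 25 against 25. They were 4506 and 3740 of 11651 with no filter beyond 1 UMI, and 138 and 90 of 1116 at a mean of at least 1 UMI. At a mean of at least 5 they were 6 and 4 of 217, and at 2-fold 9 and 0 of 521. The lower count was also 7 unthinned, 7 with the tag correction and 5 pooled. With 1 cell left out the thinned counts ran from 26 to 36 and from 14 to 20, and the pooled counts from 16 to 29 and from 4 to 8; 29 was without RNA-poor cell 48 and 8 without RNA-rich cell 1. Spike-ins past 1.5-fold were 1 for 10 against 10 and 1 without shallow cells. The pooled ratio and its values with 1 cell left out or other cells chosen, the transfer RNA list, and ranking without a list's own genes for lists beyond ribosomal proteins, mitochondrial mRNAs, histones and cell cycle genes were chosen after seeing the data. No paired analysis was possible because the labels name no replicates, only single cells of 1 line.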
